A study of Mus musculus with 6 samples.

Results

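Tumor cluster 6 is a group of 3432 cells among the 29638 tumor cells of a single-cell RNA sequencing study of mouse liver tumors, in which 58794 cells of all types were annotated. Its members are the cells that the deposited annotation calls tumor cells and places in cluster number 6. The tumors were grown from H22, a murine hepatocellular carcinoma (HCC) cell line, which was passaged as ascites and then implanted in the livers of C57BL/6J males, 8 weeks of age when obtained and wild type in the labels. The 3 control mice received the same tumor cells and standard housing, and the 3 stressed mice were exposed to chronic unpredictable mild stress, a daily change of mild stressors. Each mouse gave 1 10x Genomics library from its tumor tissue, and the cluster held 893, 667 and 582 cells in the control mice and 472, 453 and 365 cells in the stressed mice. H22 is 1 cell line, so all mice carry tumors of the same origin.

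Hspb1, Utrn, Sox4, Cited2 and Ndrg1 name this cluster. Hspb1 (HSP27) is a small heat shock protein that holds misfolded proteins and is induced by heat shock factor 1. Ndrg1 and Cited2 are induced when the hypoxia-inducible factors (HIF) are stabilised at low oxygen, and Cited2 in turn competes with HIF for its coactivators. Sox4 is a transcription factor of progenitor and mesenchymal states, and Utrn encodes utrophin, the dystrophin relative that links actin to the dystroglycan complex at the membrane.

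Values are given as counts per 1000000 unique molecular identifiers (UMIs), written CPM, after the UMIs of the cluster's cells had been summed within each mouse. These sums held between 14304593 and 16964433 UMIs in control mice and between 9429685 and 14443373 UMIs in stressed mice. A median cell of the cluster carried 18042 to 28474 UMIs in control mice and 25020 to 30103 in stressed mice. No cell barcode of the cluster occurred in a second library. Control libraries had been counted with Cell Ranger 9.0.0 and those of stressed mice with Cell Ranger 7.1.0, per the matrix headers, so effects of stress and of the counting version cannot be told apart in the group comparisons below. Control mouse 2 stood apart from the other controls within the cluster: the chi-square per degree of freedom between its counts and theirs was 38.0 and 31.3, against 6.51 between controls 1 and 3.

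The sequences upstream of 2 marker genes are shown because their markers stand for the heat shock and the hypoxia response. They are the 250 bases before the RefSeq start (GRCm38.p6), 5′ to 3′ on the strand of the gene. Capitals mark GAANNTTC, the core of a heat shock element, and ACGTG, the core of a hypoxia response element, on either strand. The window of Hspb1 is chr5:135887669-135887918 and that of Cited2 is chr10:17722978-17723227, both on the plus strand.
Hspb1: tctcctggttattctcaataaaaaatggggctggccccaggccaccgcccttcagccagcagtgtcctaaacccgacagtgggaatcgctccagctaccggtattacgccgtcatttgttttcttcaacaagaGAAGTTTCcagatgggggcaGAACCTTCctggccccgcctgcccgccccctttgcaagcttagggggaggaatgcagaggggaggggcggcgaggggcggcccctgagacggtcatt
Cited2: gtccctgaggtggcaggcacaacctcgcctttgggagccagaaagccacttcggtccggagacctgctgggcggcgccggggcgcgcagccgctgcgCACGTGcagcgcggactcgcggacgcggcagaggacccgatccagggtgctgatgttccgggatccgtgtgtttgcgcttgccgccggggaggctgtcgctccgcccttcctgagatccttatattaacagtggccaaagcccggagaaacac

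The Hspb1 window held 2 matches to GAANNTTC and none to ACGTG. The single ACGTG of Cited2 reads the same on both strands and is also an E-box (CACGTG), a site that other factors bind. The window of Utrn, not shown, held a CACGTG too, and that of Sox4 held neither motif. No upstream sequence was available for Ndrg1. Among the 15 genes with the highest ratio of CPM in cluster 6 over the other tumor cells, 12 had a promoter in the RefSeq table (250 bases before to 50 after the start). Of these, 2 held GAANNTTC, namely Hspb1 and Hspa1b, and 6 held ACGTG. Over all 27025 genes with such a promoter, 9.04% held GAANNTTC and 21.8% held ACGTG. These matches are letters in a window and not measured binding.

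The tumor identity of the cluster was checked against 10 fixed markers. Krt18, a keratin of simple epithelia, was at 473 CPM ± 58.3 (SD, n = 6 mice), close to the 417 CPM of the other tumor cells. Cldn6 was at 161 CPM ± 24.8 and Epcam at 127 CPM ± 30.4. Afp, the fetal albumin relative used as an HCC marker, was at 44.1 CPM ± 12.9, below the 82.0 CPM of the other tumor cells. Krt8 was at 10.2 CPM, Cldn4 at 1.69 CPM, and Gpc3, H19, Igf2 and Cdh1 each lay at or below 0.525 CPM. Epcam (166 CPM), Krt8 (300.1 CPM) and Cldn4 (117 CPM) were higher in the cells annotated as HSCs, and so was the sum of the 10 markers, at 1134 CPM against 818 CPM in cluster 6. Of the 10 markers, Krt18, Cldn6 and Afp had their highest level in tumor cells. The markers of other cell types were low in the cluster: the 7 endothelial markers summed to 29.6 CPM against 6674 CPM in endothelial cells (ECs), and the 8 lymphoid markers to 3.04 CPM against 3760 CPM in NK/T cells. The 10 myeloid markers summed to 40.3 CPM against 162566 CPM in neutrophils, the 8 stellate markers to 3.84 CPM against 19708 CPM in the cells annotated as HSCs, the 10 hepatocyte markers to 0.885 CPM and the 4 hemoglobin genes to 1.28 CPM. Scrublet, a doublet caller run again on the annotated cells, marked 0% to 1.37% of the cluster's cells per mouse, and leaving them out changed the number of called genes from 156 to 157.

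All 5 markers had their highest mean among the 10 tumor clusters in cluster 6. As the cells had been clustered on the same expression values, these levels describe the cluster and were not tested. Hspb1 was at 870, 1096 and 801 CPM in the cluster 6 cells of control mice 1 to 3 and at 1091, 1191 and 1191 CPM in those of stressed mice 1 to 3. Its mean of 1040 CPM ± 166 (SD, n = 6) was 2.27 times the 458 CPM of the other tumor cells, and within a mouse the ratio ran from 1.45 to 3.42. Cluster 5 came next with 881 CPM, and in 5 of 6 mice cluster 6 was the highest.

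Utrn gave 354, 258 and 318 CPM in control mice and 245, 238 and 371 CPM in stressed mice. The gene lies at chr10:12382188-12869365 (GRCm38). Its ratio over the other tumor cells varied least, from 2.08 to 2.34 across mice, and cluster 6 was the highest tumor cluster in 6 of 6 mice. The list of the utrophin and dystroglycan complex did not move as far: 7 of its 9 expressed members (at least 5 CPM in cluster 6 or in the other tumor cells) were higher in cluster 6 in all mice, with a median log2 ratio of 0.27. Utrn itself is among the 9, and 35.4% of all genes at this level were higher in all mice. Against cluster 5 the median log2 ratio of the list was -0.18, with 2 of 9 above.

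Cited2 gave 418, 287 and 414 CPM in control mice and 339, 309 and 395 CPM in stressed mice, and cluster 6 was again highest in 6 of 6 mice, ahead of cluster 7 at 299 CPM. Ndrg1 was at 561, 446 and 532 CPM in control mice and at 298, 435 and 314 CPM in stressed mice. Every control mouse lay above every stressed mouse for Ndrg1, and cluster 6 was the highest in 4 of 6 mice, with cluster 5 next at 357 CPM. Sox4 was at 654, 633 and 742 CPM in control mice and at 529, 614 and 728 CPM in stressed mice. For Sox4 the mean of 650 CPM ± 78.2 (SD, n = 6) was not separated from the 641 CPM of cluster 5, and cluster 6 was the highest in 4 of 6 mice.

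**Figure D1:**
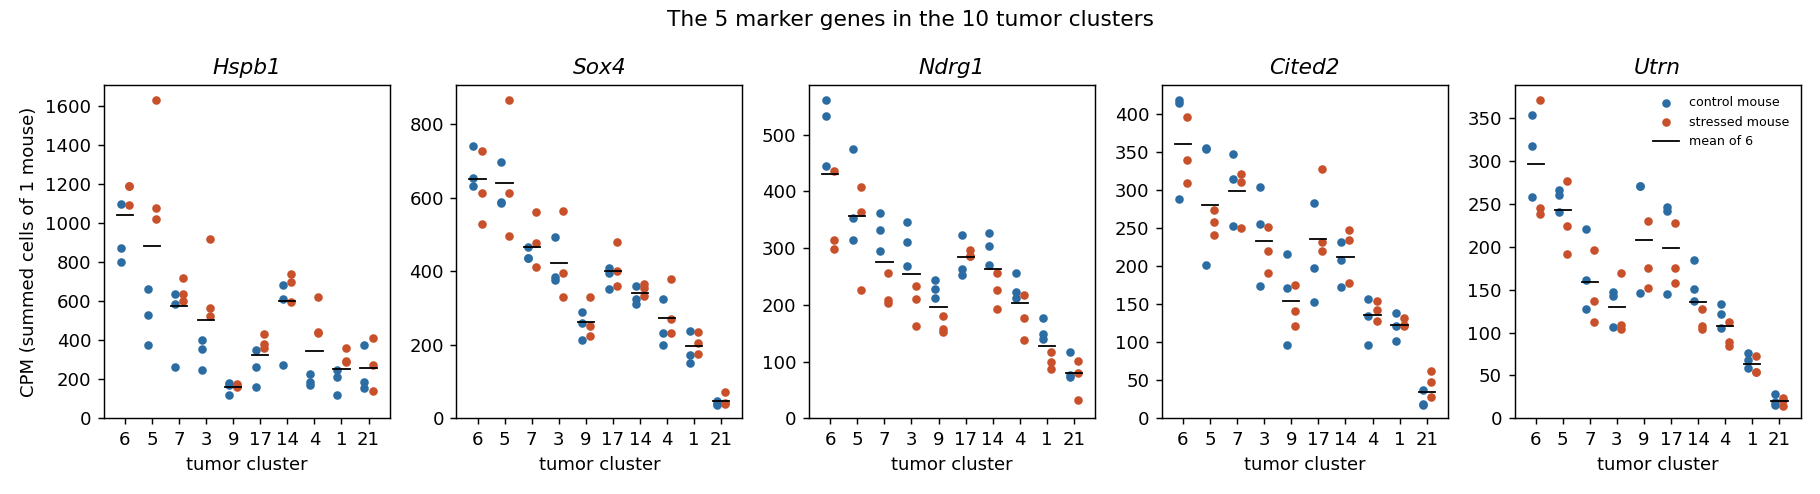
CPM of the 5 marker genes (vertical axes) in the summed cells of each mouse for the 10 tumor clusters (horizontal axes); each point is 1 mouse and each line the mean of 6 mice. Cluster 6 has the highest mean for every marker, with 1040 CPM for Hspb1 against 881 CPM in cluster 5, and cluster 21 is among the lowest.

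The markers were found in nearly every cell of the cluster. Of the 3432 cells, 98.5% held a Sox4 UMI, 95.6% Cited2, 95.4% Ndrg1, 94.3% Hspb1 and 93.5% Utrn. After each cell had been thinned to 1000 UMIs, Hspb1 was found in 43.9% of cluster 6 cells and in 26.7% of the other tumor cells, and Sox4 in 43.5% and 26.7%. Thinned shares of ECs were 8.77% for Hspb1 and 6.89% for Sox4, at a median depth before thinning of 4538 UMIs against 23597 UMIs in cluster 6. Ndrg1 was not particular to tumor cells at this depth, with 32.2% of cluster 6 cells, 22.2% of ECs and 22.7% of monocytes. Ptprb, an endothelial phosphatase that tumor cells should lack, was found in 0.437% of thinned cluster 6 cells and in 81.5% of thinned ECs. Thinning left out 2 cells of the cluster.

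The 15 genes with the largest ratio to the other tumor cells held the markers Hspb1, Utrn and Ndrg1, the inducible chaperone gene Hspa1b and the nuclear RNA Malat1. The ratio was largest for Agbl3, a tubulin deglutamylase, at 2.77, with 68.7, 99.1 and 69.3 CPM in the control mice and 146, 219 and 532 CPM in the stressed mice. Gm36037, a gene model without a name, had a ratio of 2.27. Hspa1b, the inducible HSP70, was at 323 CPM against 157 CPM, and its copy Hspa1a at 209 against 124 CPM. Both genes encode nearly the same protein, and reads may be split between them. Crebrf, a regulator of CREB3 factors, had a ratio of 2.07, Lpin2, a phosphatidate phosphatase, 1.99, and Ccng2, a cyclin tied to exit from the cell cycle, 1.90. The E3 ligases Rnf144b and Cblb (1.98 and 1.93), Atxn1 (1.98), Shroom4 (1.93) and Efnb2, an ephrin ligand (1.91), complete the 15 leading genes together with Malat1 (1.94). Of the 15, 10 had their highest mean in cluster 6, while Gm36037, Malat1, Cblb and Efnb2 were highest in cluster 17, whose median cell held only 1369 to 2877 UMIs across mice, and Hspa1b in cluster 5.

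Malat1 was at 5866 to 6739 CPM in control mice and 7523 to 12043 CPM in stressed mice, and at 3009 to 6434 CPM in the other tumor cells of the 6 mice. Mitochondrially encoded UMIs made up 3.13% to 4.95% of the cluster's UMIs and 3.78% to 5.85% of those of the other tumor cells, and they were lower in cluster 6 in each mouse. In cluster 6, 170 genes reached 50 CPM, were higher in all mice and were over 1.5 times higher by the mean of 6 mice. Their median genomic span in GENCODE M21 was 78.6 kb. It was 9.47 kb for the 288 genes at 50 CPM in the other tumor cells that were lower in all mice and by as much in the mean. For all 3641 genes at that level in either part it was 26.6 kb. The part of nuclear RNA content in the levels of the leading genes was not tested.

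The genes most depleted from the cluster were those of the dividing cell. Pclaf, a partner of the replication clamp PCNA, was at 22.9 CPM in cluster 6 and 186 CPM in the other tumor cells, a ratio of 0.123. Pbk, a mitotic kinase (0.129), Ccna2 (0.136), the histone gene H1f5 (0.137) and Rrm2, a subunit of ribonucleotide reductase (0.142), followed. The survivin gene Birc5 was at 42.3 against 280 CPM, and Ccnb1, Spc24, Cdca3 and Ccnb2 had ratios of 0.176 to 0.202. All 20 S phase genes and 19 of 20 G2 and M phase genes were lower in cluster 6 in all 6 mice, with median log2 ratios of -1.31 and -2.04. Over the 9867 genes at 5 CPM or more, 26.8% were lower in all 6 mice, 35.4% were higher in all 6, and the median log2 ratio was 0.07. The rule that made the cluster used this contrast, so these shares are given for scale. Against clusters 5, 7 and 3, which are also low in these genes, the median log2 ratio of the G2 and M list was -0.13, 0.13 and -0.22. In control mouse 2 the cluster held more of them than in the other controls, for example Birc5 at 91.8 CPM against 31.4 and 38.8 CPM.

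Most genes of the HIF list were higher in the cluster. The list holds HIF targets and also Hif1a, Epas1, Hif3a and Vhl. Of 28 expressed members, 22 were higher in cluster 6 in all 6 mice and 1, Ldha, was lower. The median log2 ratio was 0.44. Over all genes at 5 CPM or more, 35.4% were higher and 26.8% lower in all 6 mice. Apart from Ndrg1 and Cited2, Vegfa, the vascular growth factor, was at 104 against 62.2 CPM, and Ddit4, an inhibitor of mTORC1, at 31.0 against 16.5 CPM. The prolyl hydroxylases of collagen P4ha1 (145 against 89.4 CPM) and P4ha2 (60.6 against 38.7 CPM), the glucose transporter Slc2a1 (162 against 103 CPM) and the mitophagy receptor Bnip3 (195 against 129 CPM) followed. Glycolytic enzymes did not share this: 5 of 16 were higher and 2 lower in all mice, with a median log2 ratio of 0.09, and Pgam1 was at 488 against 593 CPM. The heat shock list was mixed in the same way. Of its 20 expressed members, 11 were higher in all mice, among them Hsph1 (340 against 196 CPM), Bag3 (76.4 against 45.1 CPM) and Dnajb4 (46.2 against 26.2 CPM), while the mitochondrial chaperone genes Hspd1 (611 against 752 CPM) and Hspe1 and the cochaperone gene Stip1 were lower. The 11 include the marker Hspb1 and the leading gene Hspa1b, both chosen from the values that placed cells in the cluster. Hsp90ab1 was at 3602 CPM in cluster 6 and at 3554 CPM in the other tumor cells. Against cluster 5 the median log2 ratio of the heat shock list was -0.02, with 9 of 20 above.

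Cholesterol synthesis ran the other way. No gene of this list was higher in all mice and 12 of 18 were lower, with a median log2 ratio of -0.46. Over all genes at 5 CPM or more, 35.4% were higher and 26.8% lower in all mice. Fdps, which makes farnesyl diphosphate, was at 20.8 against 48.0 CPM. Among epithelial-mesenchymal and TGF-beta genes, 12 of 20 were higher in all mice and 5 lower, the latter near the share of all genes. Fn1 (fibronectin, 986 against 585 CPM), the TGF-beta receptor gene Tgfbr1 (60.4 against 37.1 CPM) and Zeb2 (86.3 against 59.9 CPM) were higher, and S100a4 (115 against 199 CPM) and Lgals1 (1156 against 1663 CPM) were lower. In the glucocorticoid list 7 of 11 were higher in all mice and none lower, with a median log2 ratio of 0.32.

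Cluster 5 was the most similar tumor cluster (Pearson's r = 0.990 across 9867 genes, which share libraries and depth and are not independent). Against cluster 5, all 18 immediate-early genes were lower in cluster 6 with a median log2 ratio of -0.63, and so were all 13 mitochondrially encoded genes (-0.62) and all 7 expressed genes of MHC class I and peptide loading (-0.56). S100a4 was at 115 CPM in cluster 6 and 487 CPM in cluster 5, and Dnajb1, an HSP40, at 374 and 706 CPM. The glucocorticoid list (-0.22, with 3 of 11 above) and the epithelial-mesenchymal and TGF-beta list (-0.30, with 2 of 20 above) were also lower than in cluster 5. The HIF list was higher than in cluster 5 for 21 of 28 genes, with a median log2 ratio of 0.15. Against cluster 7, the immediate-early genes were higher in cluster 6 (0.64) and the cholesterol genes were too (0.20). All of these are descriptions of groups made from the same values.

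**Figure D2:**
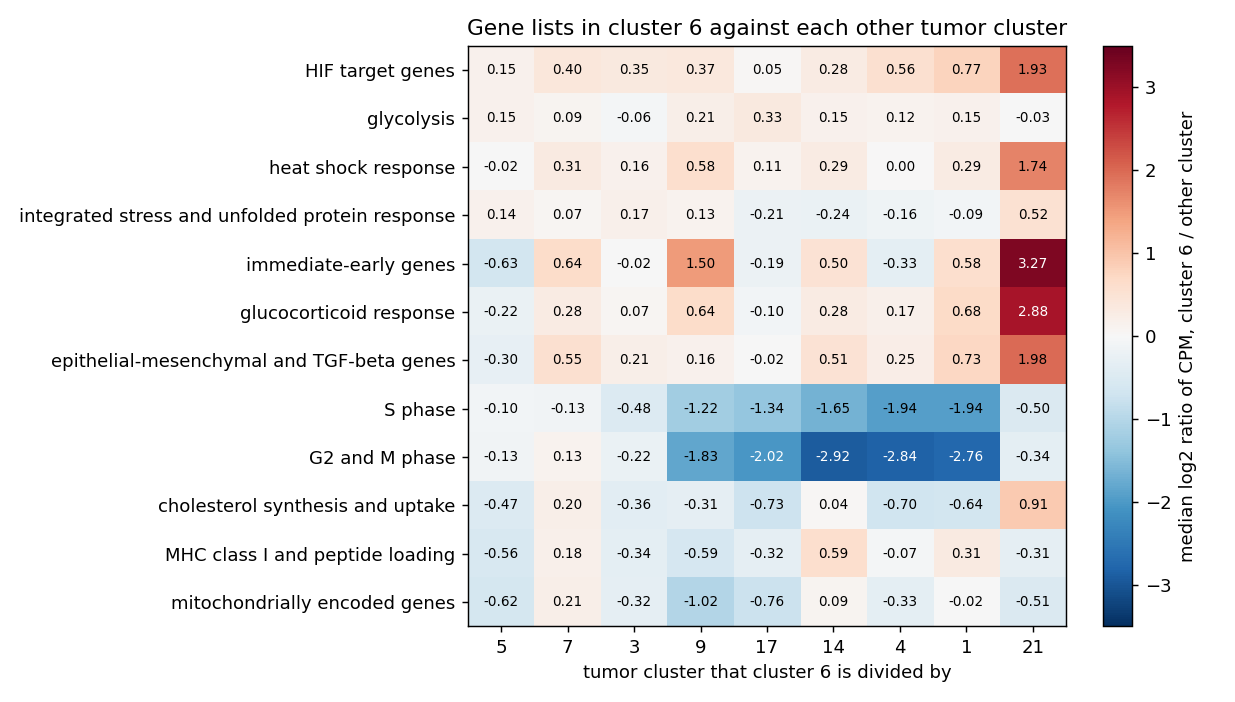
Median log2 ratio of CPM, cluster 6 over each of the other 9 tumor clusters (columns), for 12 gene lists (rows), from the means of 6 mice with 1 CPM added; red is higher and blue lower in cluster 6. The S phase and G2 and M phase lists are near 0 against clusters 5 and 7 and reach -1.94 and -2.92 against other clusters. The HIF list is above 0 in every column.

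The share of tumor cells in the cluster differed between the groups by less than the spread between mice allows to resolve. The cluster made up 12.1%, 11.6% and 11.7% of the tumor cells of the control mice and 10.9%, 11.7% and 10.9% of those of the stressed mice. The means were 11.8% ± 0.248 and 11.2% ± 0.476 (SD, n = 3), and the groups overlapped (two-sided exact permutation test over mice, p = 0.20). No p below 0.10 can be reached by this test at 3 mice per group. None of the 15 leading genes passed the test between the groups, with adjusted p between 0.0746 for Agbl3 and 0.809 for Atxn1 in edgeR's quasi-likelihood test. These genes were chosen from the values that placed cells in the cluster. The test therefore cannot show that the cluster is alike in both groups. As a share of all annotated cells the cluster made up 6.82% ± 1.48 and 4.92% ± 1.54 (exact permutation test, p = 0.30).

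Within the cluster, 13362 genes were tested between stressed and control mice with edgeR's quasi-likelihood test on the summed counts, Benjamini-Hochberg adjusted at a threshold of 0.05. The test called 156 genes (1.17%), of which 74 were higher (0.554%) and 82 lower (0.614%) in stressed mice. The median log2 fold change of all tested genes was 0.00. The number rested on single mice. Leaving out control mouse 2 raised it to 1701 genes, and leaving out control mouse 1 or stressed mouse 1, 2 or 3 lowered it to 32, 54, 6 and 16. Without control mouse 3 edgeR called 0 genes, although 1699 had an unadjusted p below 0.05, against 2663 with all mice. Of the 156 genes, 98 are named protein or RNA genes outside the classes that follow, 35 are gene models without a name, 11 are pseudogenes or retrocopies, 6 are mitochondrially encoded and 6 belong to a group around Cmss1. The 98 include Eno1b and Eif3j2, which are described below as copies of other genes. Of the listed markers of other cell types, the 7 endothelial, 9 of 10 myeloid, 2 of 8 lymphoid and 2 of 8 stellate markers passed the filter and none was called, while none of the listed hepatocyte or hemoglobin genes passed it. The endothelial markers summed to 22.4 to 27.8 CPM in control and 27.97 to 37.4 CPM in stressed mice, the myeloid ones to 23.6 to 52.99 and 19.5 to 69.9 CPM, and the hepatocyte ones to 0.295 to 0.629 and 1.17 to 1.52 CPM. Their part in the calls was not tested. The p-values measure the spread between mice, and fewer cells with a gene and less RNA per cell cannot be told apart in these sums.

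None of the 5 markers passed. As cells of both groups were clustered on these levels, the test cannot show that the markers are unaffected by stress. Hspb1 differed by a log2 fold change of 0.22 ± 0.12 (SE, adjusted p = 0.339), Utrn by -0.26 ± 0.19 (0.487), Cited2 by -0.23 ± 0.18 (0.508) and Sox4 by -0.24 ± 0.13 (0.341). Ndrg1 was at 513 CPM in control and 349 CPM in stressed mice, a log2 fold change of -0.68 ± 0.18 with no overlap of the groups, but its adjusted p of 0.101 missed the threshold. Ndrg1 passed with DESeq2 (adjusted p = 0.00485), with no filter on low counts (0.0295) and without control mouse 2 (0.0208), and its adjusted p was highest without control mouse 3, at 0.315. In the other tumor cells of the same mice Ndrg1 differed by -0.59 (adjusted p = 0.00821).

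Of the glycolysis genes, Gpi1 and Pkm fell in the cluster 6 cells of stressed mice, and so did the glucose transporter gene Slc2a1. Gpi1, glucose-6-phosphate isomerase, was at 368, 277 and 346 CPM in control mice and at 198, 213 and 183 CPM in stressed mice, so that all stressed mice lay below all control mice (log2 fold change -0.86 ± 0.16, SE, adjusted p = 0.0475). Pkm, the pyruvate kinase of most proliferating cells, was at 792, 804 and 855 CPM and at 462, 614 and 485 CPM, again without overlap (-0.77 ± 0.13, adjusted p = 0.0416). Slc2a1 (GLUT1) was at 192, 202 and 182 CPM in control mice. In stressed mice it was at 112, 155 and 130 CPM (-0.66 ± 0.12, adjusted p = 0.0477). These 3 calls were lost in every fit that left out a mouse other than control mouse 2. The number of glycolysis genes called lower rose to 10 of 16 without control mouse 2. It was 11 with DESeq2 and 7 with no filter on low counts, where 17 entries were counted for the list.

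Of the 16 glycolysis genes, 2 were called and 15 had a log2 fold change below 0, with a median of -0.55 beside 0.00 for all genes tested. In 9 of the 16 the groups did not overlap, against 7.16% of all genes in that direction. Of all genes tested, 0.614% were called lower. Gapdh was at 2557 CPM in control and 1877 CPM in stressed mice (log2 fold change -0.56, adjusted p = 0.136). Ldha, which turns pyruvate into lactate, was at 675 and 483 CPM (-0.60, adjusted p = 0.0654), and Aldoa at 685 and 502 CPM (-0.57, adjusted p = 0.0729). Hk2 and Eno1 were at -0.01 and 0.05. In the other tumor cells of the same mice the log2 fold changes were -0.75 for Gpi1, -0.79 for Pkm, -0.74 for Slc2a1 and -0.63 for Ldha.

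**Figure D3:**
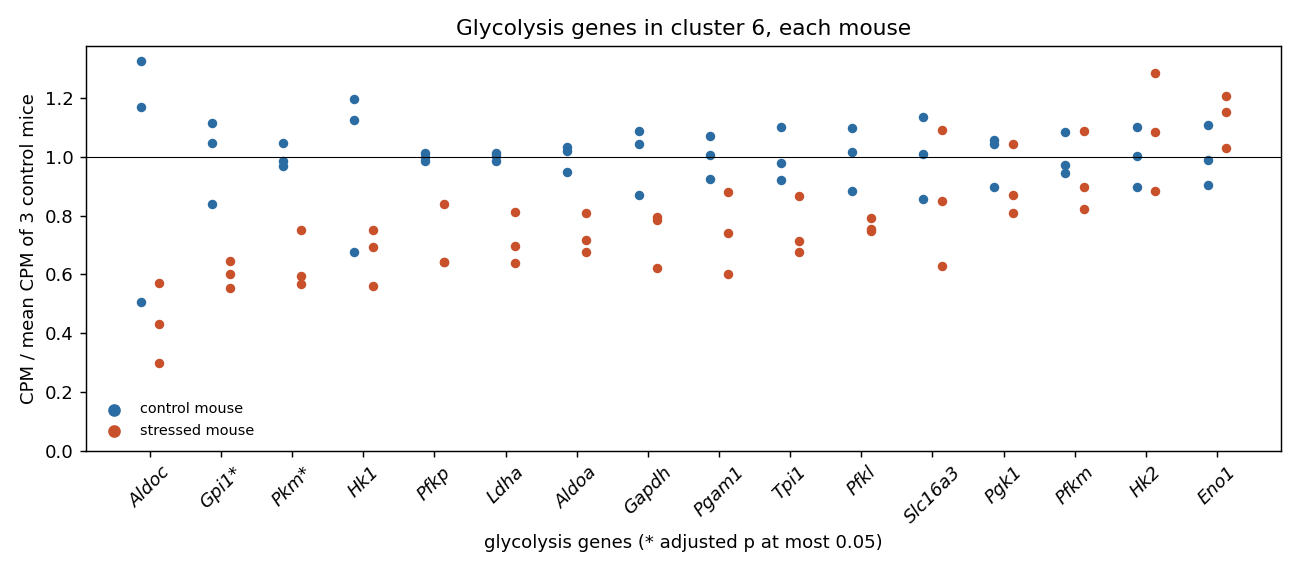
CPM of 16 glycolysis genes in cluster 6 divided by the mean of the 3 control mice (vertical axis), with 1 point per mouse; genes are ordered by log2 fold change and an asterisk marks adjusted p at most 0.05. Gpi1 and Pkm are marked, and in 9 of the 16 genes all stressed mice lie below all control mice.

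Of 30 genes of the HIF list tested, only Slc2a1 was called, beside 0.614% of all genes called lower. Of these 30, 24 had a log2 fold change below 0, and the median of the list was -0.25. The groups did not overlap in 8 that were lower and 2 that were higher, against 7.16% and 18.2% of all genes tested. Among those not called, Bnip3 was at 244 CPM in control and 145 CPM in stressed mice (log2 fold change -0.88, adjusted p = 0.109) and Ankrd37 at 86.1 and 35.8 CPM (-1.39, adjusted p = 0.0654). Vegfa was at 89.3 and 118 CPM (0.28, adjusted p = 0.209), with each stressed mouse above each control mouse, and Hif1a itself at 69.2 and 76.2 CPM (0.02, adjusted p = 0.920). The number called lower was 9 with DESeq2, 8 with no filter on low counts and 11 without control mouse 2.

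Of 13 mitochondrially encoded genes, 6 rose in stressed mice, beside 0.554% of all genes tested that were called higher. mt-Nd2, a subunit of respiratory complex I, was at 665, 854 and 856 CPM in control mice and at 2290, 2042 and 2109 CPM in stressed mice (log2 fold change 1.33 ± 0.14, SE, adjusted p = 0.0110). mt-Atp8, a subunit of the ATP synthase, was at 73.7, 66.1 and 60.5 CPM and at 187, 181 and 296 CPM (1.60 ± 0.18, adjusted p = 0.0133). mt-Nd4l was at 58.8, 60.3 and 60.5 CPM and at 169, 153 and 266 CPM (1.58 ± 0.18, adjusted p = 0.0133). In these genes the 3 stressed mice were far above the 3 control mice. None of the 13 genes was called lower, and in 12 the groups did not overlap, beside 18.2% of all genes in that direction. The median log2 fold change was 0.66. In the other tumor cells of the same mice, mt-Nd2, mt-Atp8 and mt-Nd4l gave log2 fold changes of 1.06, 1.58 and 1.30. The 6 calls fell to 0 without control mouse 3, to 1 without stressed mouse 2 and to 3 without control mouse 1, stressed mouse 1 or stressed mouse 3. The mitochondrial share of UMIs in a median cell of the cluster was 2.96% to 3.64% in control mice and 4.63% to 5.001% in stressed mice (exact permutation test, p = 0.10, the smallest possible). The part of cell quality or of the counting version in these values was not tested.

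Among called genes at 20 CPM or more, the largest increases were in a group around Cmss1, and larger fitted changes, up to 4.98 on the log2 scale for Gm5086, were called among genes at lower levels. The members of this group were chosen because they had moved together in earlier results of these data, so their direction is not independent evidence. Lars2, the mitochondrial leucyl-tRNA synthetase, was at 119, 164 and 91.3 CPM in control mice and at 416, 613 and 927 CPM in stressed mice (log2 fold change 2.26 ± 0.28, SE, adjusted p = 0.0139). Camk1d, a calcium-dependent kinase, was at 201, 248 and 173 CPM and at 749, 1090 and 1168 CPM (2.15 ± 0.17, adjusted p = 0.004996). Gphn, the scaffold gephyrin, Cmss1, Cdk8, a kinase of the Mediator complex, and Gm19951 gave 2.11, 2.16, 1.75 and 1.79. All 6 were called and none overlapped, beside 0.554% called higher and 18.2% higher without overlap among all genes tested. The calls fell to 0 without control mouse 3, 1 without stressed mouse 2, 2 without control mouse 1 and 3 without stressed mouse 3. In the other tumor cells the same genes gave 1.54 to 2.24. Outside these groups, Spata7, a protein of the cilium, was at 390, 371 and 372 CPM in control mice and at 698, 774 and 1066 CPM in stressed mice (1.04 ± 0.15, adjusted p = 0.0206). Tmprss9, a membrane serine protease, and 1700010K24Rik gave 1.20 and 1.17.

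Among the decreases, Dapk1, the death-associated protein kinase, was at 50.4, 35.4 and 42.2 CPM in control mice and at 12.3, 11.6 and 5.20 CPM in stressed mice (log2 fold change -2.22 ± 0.31, SE, adjusted p = 0.0211). Plxdc2, a plexin-domain membrane protein, was at 214, 140 and 222 CPM and at 50.6, 66.6 and 41.6 CPM (-1.98 ± 0.25, adjusted p = 0.0150). Ctla4, the inhibitory receptor of T cells, was at 100.1, 75.5 and 93.4 CPM and at 28.7, 31.5 and 18.5 CPM (-1.88 ± 0.23, adjusted p = 0.0139). For each of these genes the lowest control mouse was above the highest stressed mouse. Ctla4 had its highest level in NK/T cells, at 552 CPM. There the groups overlapped, with 635, 597 and 564 CPM in control and 474, 424 and 617 CPM in stressed mice. They also overlapped in B cells, neutrophils, inflammatory myeloid cells and the cells annotated as HSCs. In ECs of the same mice Ctla4 was at 48.9, 49.2 and 37.7 CPM in control and at 17.9, 18.9 and 13.5 CPM in stressed mice. In the other tumor cells its log2 fold change was -1.77 (edgeR adjusted p = 0.00328), so the difference was not limited to the cluster. The summed lymphoid markers of the cluster were at 0.708 to 4.75 CPM in control and 1.80 to 5.70 CPM in stressed mice.

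Ryr3, a calcium release channel, gave a log2 fold change of -1.82, Map7, a microtubule-binding protein, -1.68, and Nudcd3, a cochaperone of dynein, -1.68. Nudcd3 was at 569, 452 and 437 CPM in control mice and at 166, 186 and 142 CPM in stressed mice. Wdr89 gave -1.57, and the unnamed models Gm46563, Gm53028 and Gm2000 gave -1.93, -1.63 and -1.59.

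**Figure D4:**
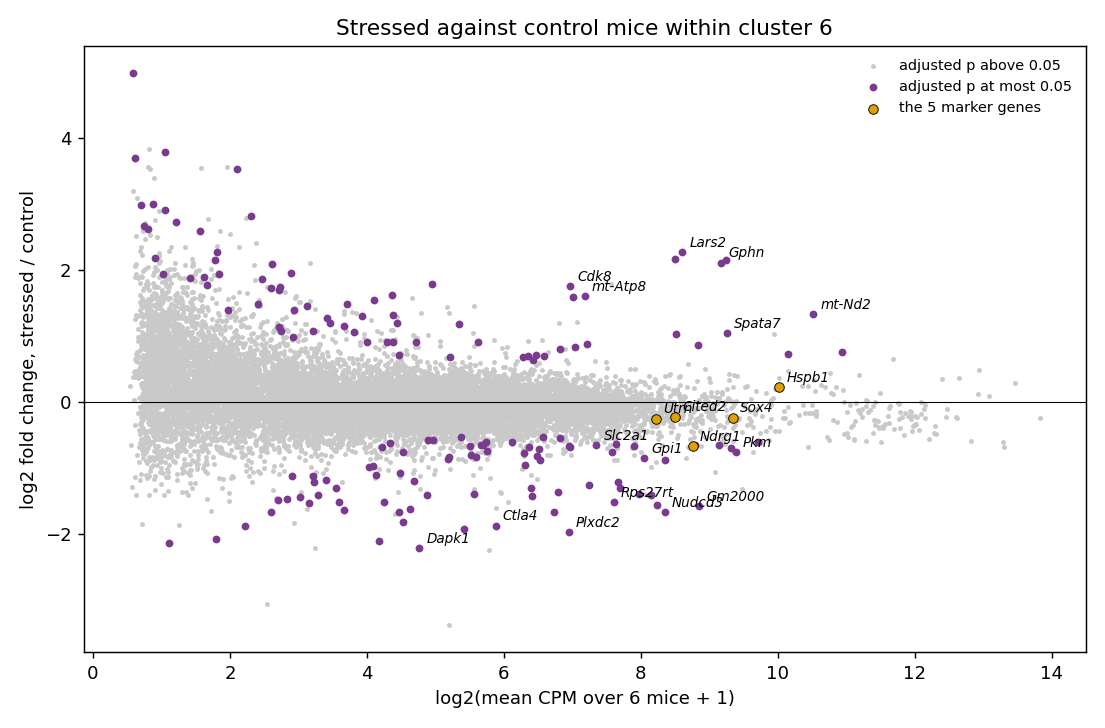
Log2 fold change, stressed over control mice, within cluster 6 (vertical axis) against log2 of the mean CPM of 6 mice plus 1 (horizontal axis); each point is 1 of 13362 genes, purple marks the 156 with adjusted p at most 0.05 and yellow the 5 markers. The markers sit near 0 with Ndrg1 lowest at -0.68, and Lars2 and Gphn are high at 2.26 and 2.11.

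Several of the called genes are near-identical copies of others, whose reads may be split between copy and parent, and they are uncertain for that reason. Rps27rt was at 343, 224 and 275 CPM in control mice and at 113, 104 and 101 CPM in stressed mice (log2 fold change -1.52, adjusted p = 0.0139), whereas its parent Rps27 differed by -0.38 (adjusted p = 0.233). Rpl37rt gave -1.41 and Rpl37 -0.22, and Rpl9-ps6 gave -1.31 and Rpl9 -0.12. Eno1b, a copy of enolase 1, gave -1.68 and Eno1 itself 0.05. Copies also moved the other way, with 0.83 for Rps18-ps6 against -0.21 for Rps18 and 0.90 for Eif3j2 against -0.26 for Eif3j1. All of these copies were called and none of the parents was. The counting version differed between the groups, and its part in the copies was not tested.

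The remaining gene lists gave no called gene. Among 21 heat shock genes the median log2 fold change was 0.20, and 4 did not overlap and were higher in stressed mice, a share near the 18.2% of all genes tested, among them Hsp90aa1 at 1243 and 1698 CPM (0.34, adjusted p = 0.131). The 18 immediate-early genes had a median of -0.22, and Fos was at 1234, 582 and 1154 CPM in control and at 541, 312 and 448 CPM in stressed mice (-1.32, adjusted p = 0.0935). Control mouse 2 lay nearer to the stressed mice for Fos than to the other controls. The 12 glucocorticoid response genes tested had a median of -0.21, with Dusp1 at -0.99 (adjusted p = 0.254) and Mt1 at -0.11. The 21 epithelial-mesenchymal and TGF-beta genes tested had a median of -0.16, and Fn1 was at 512, 630 and 683 CPM and at 873, 1283 and 1938 CPM (1.03, adjusted p = 0.0832). S phase genes had a median of -0.05 and G2 and M phase genes of -0.55, and the lowest adjusted p of both lists was 0.200. The 23 genes of the integrated stress and unfolded protein response had a median of -0.11, the 13 p53 targets of -0.24, the 19 cholesterol genes of -0.16, the 10 genes of MHC class I and peptide loading of 0.16 and the 11 interferon-stimulated genes of 0.10. The 7 relatives of the markers tested had a median of -0.19 and the 11 genes of the utrophin complex of -0.26.

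To ask whether stress acted differently in cluster 6 than in the remaining tumor cells, the interaction was tested in edgeR with the mouse as a block. It called 0 of 17438 genes (0%), while 1926 genes had an unadjusted p below 0.05, and DESeq2 called 17 of 16623 (0.102%). For scale, the same comparison of stressed and control mice in the other tumor cells, which hold more cells, called 3804 of 18598 genes (20.5%). The calls in one and not in the other are therefore no sign of a difference. The 2 genes with the smallest adjusted p in DESeq2 were Hspa1a and Hspa1b, chosen here after their values were seen. Hspa1b was at 286, 238 and 323 CPM in the cluster 6 cells of control mice and at 328, 313 and 451 CPM in those of stressed mice. In the other tumor cells it was at 131, 67.0 and 89.8 CPM and at 234, 188 and 229 CPM. The log2 fold changes were 0.24 and 1.06, and the interaction was -0.89 ± 0.16 (SE, edgeR adjusted p = 0.182). For Hspa1a the interaction was -0.96 ± 0.16 with the same adjusted p, and for Hspb1 it was -0.57 ± 0.18 (adjusted p = 0.293). Hspb1 is a marker of the cluster and Hspa1b a leading gene, so their levels were not independent of the grouping of the cells. The part of this grouping in the interactions was not tested. The other 4 markers had interactions between -0.25 and 0.04. Without control mouse 1 edgeR called 3 genes, Hspa1a, Hspa1b and Sfta2, and without control mouse 2 it called 48.

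**Figure D5:**
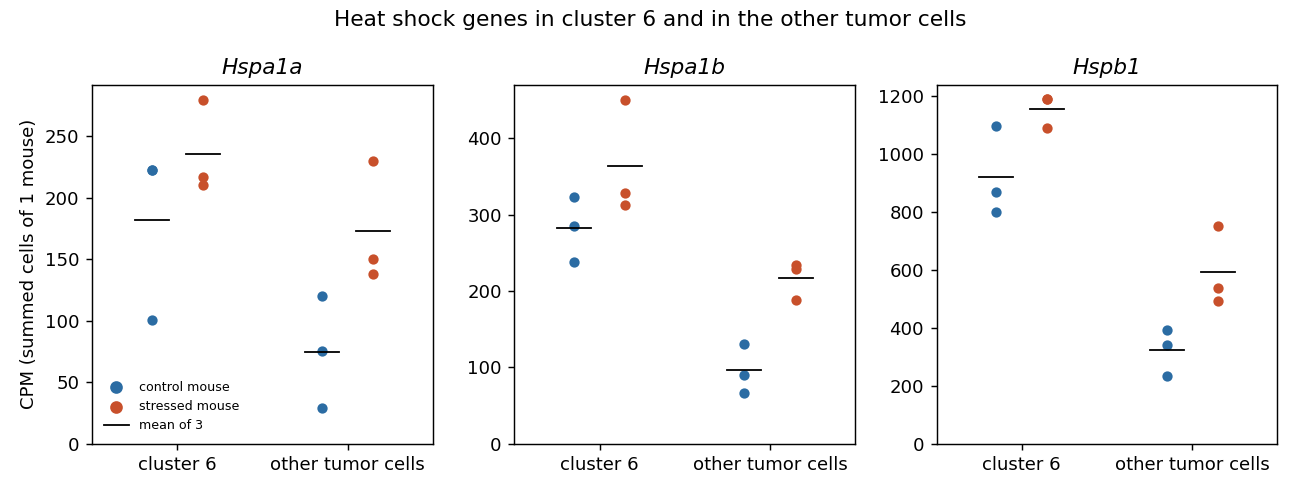
CPM of Hspa1a, Hspa1b and Hspb1 (vertical axes) in cluster 6 and in the other tumor cells, with 1 point per mouse and a line at the mean of 3 mice. In the other tumor cells all stressed mice lie above all control mice for each gene, and in cluster 6 each control mouse is higher than in its own other tumor cells and the groups overlap.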

How the data were processed

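A separate 10x Genomics library was made from the tumor tissue of each of 3 control and 3 stressed mice. The deposited matrices hold raw UMI counts for every gene in every cell, without normalization by the authors, beside a table with the mouse, cluster and cell type of each annotated cell. The processing notes name Cell Ranger, Seurat and the build mm10; per the study's methods, doublets, cells with over 20% mitochondrial UMIs and cells with under 200 genes were removed and libraries were integrated before clustering. The UMI counts of the deposited table matched the matrix totals exactly in 68.3% to 76.7% of cells per library, and the matrices were used. Scrublet, run again here on the annotated cells, still marked 3.15% to 5.74% of them in control and 3.11% to 6.38% in stressed libraries, and these were kept in the main comparison.

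For cluster 6 the UMI counts of each mouse were added up. They were compared by the quasi-likelihood test of edgeR 4.0.16 (R 4.3.3) after filterByExpr and TMM, adjusting by Benjamini-Hochberg at 0.05. The interaction used 2 sums per mouse. The edgeR steps were tested on simulated data. DESeq2 1.42.0, RLE normalization, no filter, leaving out each mouse, removing Scrublet doublets, equal numbers of 365 cells per mouse and the replicate number as a block were alternatives. Gene positions and spans came from GENCODE M21 and promoters from RefSeq (GRCm38.p6). Ero1l, Ctgf and Cyr61 were matched by their present symbols, and Hspb11 was not matched.

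Named genes were the 5 markers, the 15 genes with the highest and 10 with the lowest ratio to other tumor cells (at least 50 CPM and the same direction in all 6 mice), the 12 largest called changes per direction (at least 20 CPM, no overlap) and up to 4 members per gene list, with further list members named as examples after their values were seen. The cluster, its markers and the gene lists were chosen with earlier results of these data known. The study's own test over single cells was not used, since cells of a mouse are not replicates.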

Additional observations from a re-analysis of the deposited data

How the results depend on the processing

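The number of genes called between stressed and control mice in cluster 6 (156) was 730 with DESeq2 (264 higher, 466 lower) and 490 with no filter on low counts, and ranged from 0 to 1701 when 1 mouse was left out. It stayed within 1.5 times under RLE normalization (156), equal numbers of cells (156, with 123 of the same genes) and removal of doublets (157). Asking for an absolute log2 fold change over 0.15 could not lower it, as the smallest called change was -0.53, for Ptpn1. The number of genes whose stress difference departed from the other tumor cells (0) was 17 with DESeq2, 219 with no filter, 4 when clusters 1 and 4 were left out of the other tumor cells (Edn2, Ccr4, Cx3cr1 and Gm35330), and 0 to 48 when 1 mouse was left out. The difference in the share of tumor cells (-0.651 percentage points) kept its sign under every alternative run and ranged from -0.926 to -0.509 when 1 mouse was left out. Same-numbered mice did not deviate together in every pair (correlations of 0.396, 0.242 and -0.161). With 3 mice per group these values cannot show whether such mice share more than a number. With the replicate block 220 genes were called, 141 of them among the 156, and the share differed by -0.651 percentage points. The interaction already had the mouse as a block. Of 40 genes followed singly, none changed sign under any of these alternatives. Only 28 of them were called in the main fit. All 28 lost their call without control mouse 3, and 25 did so without stressed mouse 2. Leaving out a mouse leaves fewer samples; the cause of the other shifts was not tested. The filter on low counts left 13362 genes, and 3 mice per group limit every test.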
